A study of Mus musculus with 9 samples.

Results

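The glucuronosyltransferases and sulfotransferases of mouse liver were taken from a table of 54532 genes as the protein-coding genes whose symbol starts with Ugt1, Ugt2, Ugt3 or Sult and whose value was above 0 FPKM in at least 1 of 9 libraries. FPKM divides the fragments of a gene by its exon length and by a denominator of the library, so it is a level per length. Here the denominators tracked median-of-ratios scale factors and not the totals of reads. In knockout replicate 1 the denominator was 13513212, beside 15184888 recovered reads. The rule gave 35 genes of the 54532, 18 Ugt and 17 Sult genes. A further 7 protein-coding genes with these prefixes, Sult1c1, Sult2a4, Sult2a6, Sult6b2, Ugt1a8, Ugt2a1 and Ugt2a2, were at 0 in every library, and 6 pseudogenes were left aside. The libraries came from liver RNA of 3 groups with 3 libraries each. The wild type mice are listed without betaine. Mice lacking Cth, the gene of cystathionine gamma-lyase, drank plain water, and the remaining group, also lacking Cth, drank water with 1% betaine. Both Cth-deficient groups thus carry the same deficiency and differ in betaine. Strain, sex, age, the kind of Cth allele and the length of the betaine treatment are not given in the labels. Whether the replicates of a group are different animals is not stated, and p-values then reflect only how far these libraries scatter, which may be technical. In wild type this scatter also includes replicate 3, whose sex-linked RNA differed from that of all other libraries, as given below.

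UDP-glucuronosyltransferases sit in the endoplasmic reticulum and join glucuronic acid, from UDP-glucuronate, to bilirubin, bile acids, steroids and drugs. Sulfotransferases of the cytosol move a sulfate group from PAPS, the activated form of sulfate, onto phenols, steroids and bile acids. Inorganic sulfate for PAPS is made in liver in part from cysteine, the product of cystathionine gamma-lyase. Several genes of both families are expressed at different levels in male and female mouse liver, under growth hormone.

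Depth and the libraries were checked first. Reads recovered from the FPKM values and exon lengths came to between 15184888 and 17473977 per library, and 3 reads in 1 kilobase of exon corresponded to 0.162 to 0.222 FPKM. Cth itself measured 285, 257 and 219 FPKM in wild type, 0.583, 0.278 and 0.770 FPKM in the knockout and 0.319, 0.309 and 0.781 FPKM with betaine. The knockout and betaine libraries lay far below all wild type libraries. The library labelled wild type replicate 3 differed from all others in sex-linked RNA. It had 26.6 FPKM of Xist, the RNA of the inactive X chromosome, and 0 of the Y-linked Ddx3y, Eif2s3y, Kdm5d and Uty, whereas the other 8 libraries had at most 0.0124 FPKM of Xist and expressed all 4 Y-linked genes. Of the female-biased liver genes, Cyp2b9 was at 215 FPKM in that library, and of the male-biased genes Mup20 was at 55.3 FPKM against 1991 to 4724 in the others, and Cyp4a12a at 0. Results are therefore given with and without wild type replicate 3. The 6 hepatocyte markers were all detected, with summed levels of 47052 to 64586 FPKM in wild type, 41061 to 52870 in the knockout and 32954 to 46655 with betaine. Summed Kupffer cell markers ran from 109 to 134 FPKM in wild type, 70.6 to 84.8 in the knockout and 52.6 to 141 with betaine, and sinusoidal endothelial markers from 24.8 to 41.8, 20.5 to 26.5 and 15.5 to 23.3 FPKM. Over all 9 libraries the sums were 19.9 to 46.7 FPKM for cholangiocytes, 14.2 to 42.1 for stellate cells, 0.991 to 3.88 for lymphocytes and 24.3 to 285 for red cells. Intestinal markers summed to 24.0 to 59.8 FPKM, mostly Fabp2, with Cdx2 at 0. Kidney and pancreas markers summed to at most 0.112 and 1.21 FPKM, with Kap, Cpa1 and Pnlip at 0. The part of these cell types in the results on the transferases was not tested. In whole tissue, fewer cells of a type and less RNA per cell cannot be told apart.

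The Ugt1a genes are built in a particular way that decides what their values measure. On chromosome 1 of GRCm38, each Ugt1a gene has its own exon 1, which encodes the part that binds the substrate, and all share exons 2 to 5, a block of 1311 bases that begins at position 88215044. Ugt1a9 starts at 88070800, Ugt1a6b at 88103252, Ugt1a5 at 88166012 and Ugt1a1 at 88211959, all on the forward strand, with exon 1 of the last of these ending at 88212871. The last 30 bases of exon 1 in lower case and the first 30 bases of the common exon 2 in capitals show where the 4 most abundant Ugt1a transcripts differ and where they are the same.
Ugt1a1: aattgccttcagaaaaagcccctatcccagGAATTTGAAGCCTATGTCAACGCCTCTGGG
Ugt1a5: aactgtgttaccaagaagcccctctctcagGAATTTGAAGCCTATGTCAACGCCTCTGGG
Ugt1a6b: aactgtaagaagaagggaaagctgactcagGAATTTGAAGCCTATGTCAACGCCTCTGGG
Ugt1a9: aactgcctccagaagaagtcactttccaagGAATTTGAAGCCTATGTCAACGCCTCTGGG
The sequences were read from the GENCODE M21 transcripts. Ugt1a8 and Ugt1a2 carry the same common exons and were at 0 and at most 0.364 FPKM, so the reads of those exons are not in the values of these 2 genes. With the exons shared by Ugt1a genes left out of the length, the mean over 9 libraries was 103 rather than 42.3 FPKM for Ugt1a1, 44.2 rather than 17.7 for Ugt1a9, 32.2 rather than 12.7 for Ugt1a6b and 22.0 rather than 8.92 for Ugt1a5. With bases of any other annotated gene left out as well, the value for Ugt1a1 was 245 FPKM over 385 bases, and those of the other 3 genes were the same. The order of the 4 genes was the same on these scales, and ratios between libraries are the same on all of them, since the length is a constant of the gene. Of the 50-base windows of Ugt1a6b, 79.8% occur in another family gene, beside 58.2% for Ugt1a1, 64.0% for Ugt1a5 and 62.0% for Ugt1a9. These shares include the common exons, and Ugt1a6b shares further sequence with Ugt1a6a, so reads could be split between these 2 genes.

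The most abundant members belonged to the Ugt2b group on chromosome 5, whose enzymes act on steroids, bile acids and many drugs. Ugt2b5 measured 649.6, 719 and 275 FPKM in wild type, 679, 600.5 and 718 FPKM in the knockout and 478, 522 and 578 FPKM with betaine. Ugt2b36 measured 361, 384 and 229 FPKM in wild type, 427, 420.3 and 426 FPKM in the knockout and 377, 342 and 364 FPKM with betaine. Ugt2b1 measured 386, 361 and 103 FPKM in wild type, 320.4, 286 and 308 FPKM in the knockout and 234, 293 and 333 FPKM with betaine. In all 3 genes wild type replicate 3 was the lowest of the 9 libraries. Sult2a8, a sulfotransferase of the hydroxysteroid family known to act on bile acids, measured 219, 209 and 99.1 FPKM in wild type, 246, 253 and 245 FPKM in the knockout and 175, 171 and 165 FPKM with betaine. Sult1a1, the phenol sulfotransferase, measured 141, 128 and 321 FPKM in wild type, 178, 169.9 and 146 FPKM in the knockout and 216, 114 and 149 FPKM with betaine. Ugt2b34 measured 144, 131 and 124 FPKM in wild type, 153, 127 and 139 FPKM in the knockout and 148, 181 and 189 FPKM with betaine. Sult1a1 was highest, and Sult2a8 and Ugt2b34 were lowest, in wild type replicate 3. Summed over its 8 members, the Ugt2 group came to 1859 and 1903 FPKM in wild type replicates 1 and 2, 918 in replicate 3, 1670.0 to 1849 in the knockout and 1470 to 1767 with betaine. Near-identical copies can share reads, which makes these levels uncertain: 41.7% of the 50-base windows of Ugt2b5, 37.4% of Ugt2b38 and 18.3% of Ugt2b37 occur in another family gene.

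**Figure D1:**
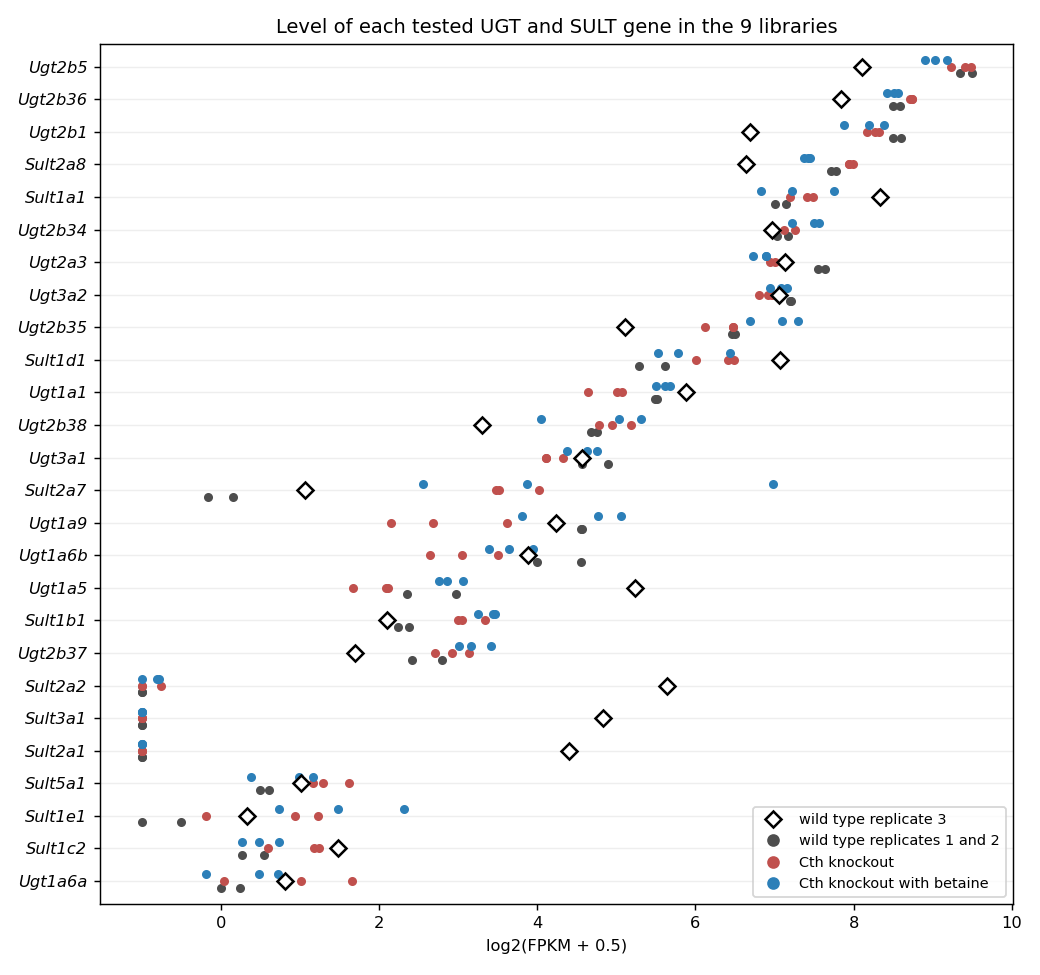
Level of the 26 members that reached a mean of 0.5 FPKM, as log2(FPKM + 0.5) on the horizontal axis, 1 row per gene and 1 point per library, coloured by group, with wild type replicate 3 drawn as a diamond. Ugt2b5 and Ugt2b36 lie at the top, and the diamond stands away from all other points in Sult2a1, Sult2a2 and Sult3a1.

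Genes were tested where their average over all libraries reached 0.5 FPKM, and 26 members passed. Sult2a3, Sult2a5, Sult2b1, Sult3a2, Sult4a1, Sult6b1, Ugt1a10, Ugt1a2 and Ugt1a7c did not, and none of them exceeded 0.557 FPKM apart from Sult2a5 in 1 library. Of those that passed, 3 did so through wild type replicate 3 alone. Sult2a1, a hydroxysteroid sulfotransferase of female mouse liver, measured 20.6 FPKM there (380 reads) and 0 in the other 8 libraries, at least 94.6-fold higher against a limit of 3 reads per library. Sult3a1, another sulfotransferase of female liver, measured 28.0 FPKM (585 reads) and 0 in the others, at least 146-fold higher. Sult2a2 measured 49.5 FPKM (664 reads) against 3 reads in the other 8 libraries together, and 62.1% of its 50-base windows are shared with other family genes. Sult2a5 followed the same pattern with 1.64 FPKM from 31 reads, at least 7.72-fold higher, and Sult3a2 had 7 reads there and 0 elsewhere. Sult2a3 had 1 read in that library and 0 in the others, which is below the limit of 3 reads.

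The comparison of knockout with wild type liver asks what the lack of Cth does to these genes. Transcripts of 3 Ugt1a genes and of Ugt3a1 were lower in the knockout, and those of 2 sulfotransferases were higher. On log2(FPKM + 0.5), limma called 6 of 26 members at an adjusted p of 0.05, 2 higher (Sult1b1 and Sult2a7) and 4 lower (Ugt1a1, Ugt1a6b, Ugt1a9 and Ugt3a1). Over all 11852 genes 25.6% were called, 12.8% higher and 12.7% lower, so the members' share of 23.1% was near that of all genes. Their median difference was 0.27 on the log2 scale, beside 0.02 over all genes, but it moved with the processing. It was 0.13, 0.02 and 0.19 without wild type replicates 1, 2 and 3 in turn, 0.05 with no filter on low values and -0.03 with a filter at a mean of 2 FPKM. It was 0.10 with the length trend removed, 0.0042 with quantile normalization and -0.10 after TPM rescaling, where the median of all genes was -0.36. The libraries of the knockout and wild type groups did not overlap in 13 of 26 members, beside 46.8% of all genes. Without wild type replicate 3 limma called 9 of 23 members, 39.1%, against 21.6% of all genes, 3 higher (background 10%) and 6 lower (background 11.6%); the additional calls were Sult5a1, higher, and Ugt1a5 and Ugt2a3, lower.

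Ugt1a1, the enzyme that conjugates bilirubin, measured 45.3, 44.5 and 58.3 FPKM in wild type, 33.0, 24.6 and 31.6 FPKM in the knockout and 48.3, 50.6 and 44.7 FPKM with betaine. All 3 knockout libraries lay below all wild type and betaine libraries. The mean was 49.4 ± 7.77 FPKM (SD, n = 3) in wild type and 29.7 ± 4.52 (SD, n = 3) in the knockout, and Ugt1a1 fell by 0.72 ± 0.16 (SE) on the log2 scale (limma adjusted p = 0.0131), or by 0.60 ± 0.15 (adjusted p = 0.0251) without wild type replicate 3. Ugt1a9, which conjugates phenols and fatty acids, measured 22.9, 23.3 and 18.4 FPKM in wild type, 11.8, 3.96 and 5.95 FPKM in the knockout and 13.5, 33.0 and 26.8 FPKM with betaine. The wild type libraries were all above the knockout libraries, and Ugt1a9 fell by 1.63 ± 0.40 (limma adjusted p = 0.0206). Ugt1a6b, of the subfamily that conjugates small planar phenols, measured 23.1, 15.5 and 14.3 FPKM in wild type, 7.80, 5.74 and 10.9 FPKM in the knockout and 10.02, 14.9 and 12.0 FPKM with betaine. No knockout library reached a wild type library, and Ugt1a6b fell by 1.08 ± 0.25 (limma adjusted p = 0.0167).

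Ugt1a5 measured 7.35, 4.63 and 37.1 FPKM in wild type, 3.83, 2.69 and 3.75 FPKM in the knockout and 7.87, 6.79 and 6.24 FPKM with betaine. The value of wild type replicate 3 was far above all others. With it the difference between knockout and wild type was -1.56 ± 0.62 (limma adjusted p = 0.0967), and without it Ugt1a5 fell by 0.71 ± 0.21 (adjusted p = 0.0448). Ugt1a6a went the other way in 2 knockout libraries, with 0.501, 0.683 and 1.26 FPKM in wild type, 0.532, 1.52 and 2.66 FPKM in the knockout and 1.16, 0.376 and 0.895 FPKM with betaine, but the groups overlapped and the difference of 0.56 ± 0.41 did not pass (limma adjusted p = 0.338). The remaining Ugt1a members were low: Ugt1a10 ranged from 0.0622 to 0.444 FPKM, Ugt1a2 from 0 to 0.364 and Ugt1a7c from 0.0175 to 0.557. Summed over the 8 Ugt1a members the level was 89.2 to 130 FPKM in wild type, 38.7 to 57.2 in the knockout and 81.1 to 106 with betaine, so the knockout libraries did not overlap with either other group. Leaving out single libraries ended the call of Ugt1a1 only without knockout replicate 2 (adjusted p = 0.0578), that of Ugt1a6b without wild type replicate 1 or knockout replicate 2, and that of Ugt1a9 without wild type replicate 1 or 2 or knockout replicate 2 or 3; the differences of these 3 genes stayed negative in all 23 alternative settings.

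**Figure D2:**
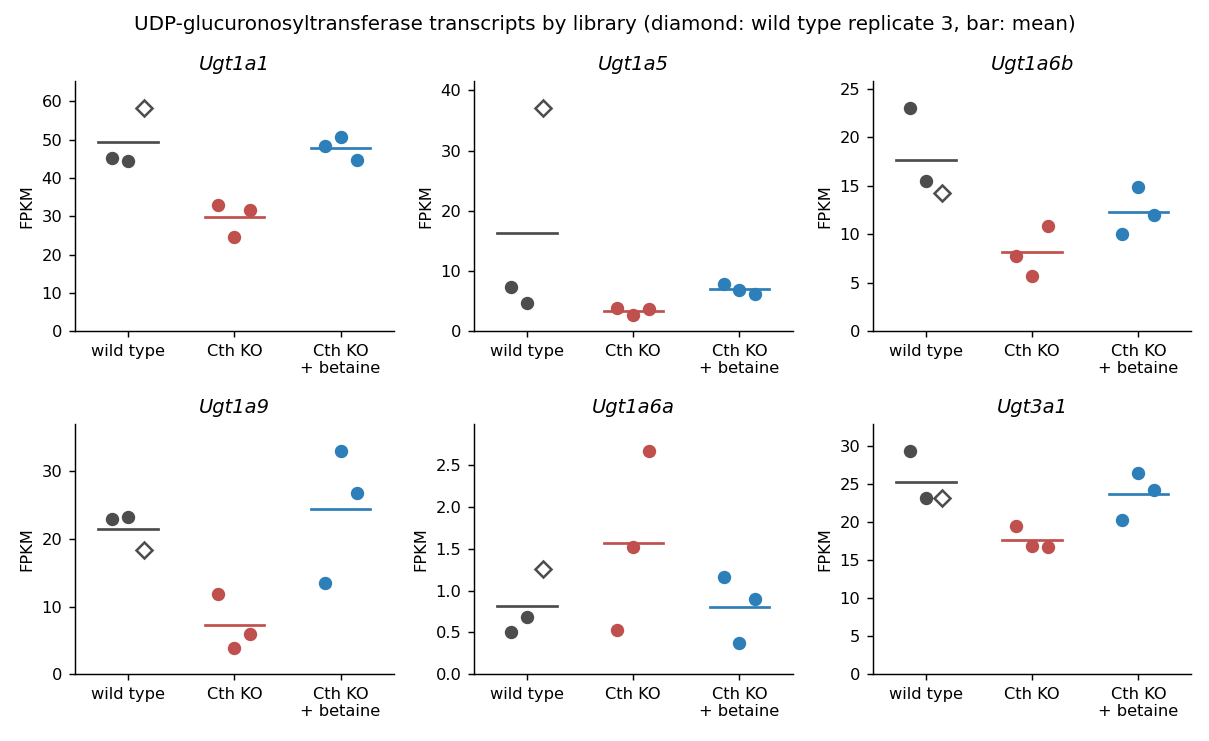
FPKM of Ugt1a1, Ugt1a5, Ugt1a6b, Ugt1a9, Ugt1a6a and Ugt3a1 in each of the 9 libraries, 1 panel per gene, with points for libraries and a bar for each group mean; wild type replicate 3 is drawn as a diamond. In Ugt1a1 the knockout points lie between 24.6 and 33.0 FPKM and all other points between 44.5 and 58.3 FPKM.

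In the other Ugt families 1 member was called with all 9 libraries. Ugt3a1, an enzyme that uses UDP-N-acetylglucosamine, measured 29.3, 23.2 and 23.2 FPKM in wild type, 19.5, 16.8 and 16.7 FPKM in the knockout and 20.3, 26.4 and 24.3 FPKM with betaine. The knockout libraries were below all others, and Ugt3a1 fell by 0.49 ± 0.15 (limma adjusted p = 0.0374), a call that 5 of the 9 fits with 1 library left out did not keep, with adjusted p up to 0.123. Its neighbour Ugt3a2 differed by -0.26 ± 0.12 (limma adjusted p = 0.141), with 111 to 124 FPKM in the knockout and 133 to 147 in wild type. Ugt2a3 measured 198, 188 and 139.5 FPKM in wild type, 138, 128 and 123 FPKM in the knockout and 105, 118 and 118 FPKM with betaine. Wild type replicate 3 was the lowest of its group; the difference was -0.42 ± 0.15 with it (limma adjusted p = 0.0739), and without it Ugt2a3 fell by 0.57 ± 0.12 (adjusted p = 0.0176).

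None of the 7 Ugt2b members passed in this comparison, with or without wild type replicate 3. For Ugt2b5 the difference was 0.40 ± 0.32 with that library and -0.04 ± 0.15 without it, for Ugt2b1 0.32 ± 0.44 and -0.29 ± 0.17, and for Ugt2b35 0.33 ± 0.35 and -0.13 ± 0.19, so these signs rest on that library. Ugt2b36 differed by 0.42 ± 0.19 and 0.19 ± 0.12, Ugt2b34 by 0.07 ± 0.14 and 0.02 ± 0.15, Ugt2b37 by 0.63 ± 0.26 and 0.33 ± 0.18 and Ugt2b38 by 0.73 ± 0.42 and 0.25 ± 0.33.

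Among the sulfotransferases, 2 were called. Sult1b1, an enzyme of thyroid hormone and phenol sulfation, measured 4.70, 4.23 and 3.78 FPKM in wild type, 9.66, 7.53 and 7.80 FPKM in the knockout and 9.03, 10.5 and 10.3 FPKM with betaine. Every library of the Cth-deficient groups was above every wild type library. The mean was 4.24 ± 0.463 FPKM (SD, n = 3) in wild type and 8.33 ± 1.16 (SD, n = 3) in the knockout, and Sult1b1 rose by 0.89 ± 0.14 (SE) on the log2 scale (limma adjusted p = 0.00612), or by 0.82 ± 0.14 (adjusted p = 0.0101) without wild type replicate 3. The call remained in all 9 fits with 1 library left out and in 22 of 23 alternative settings, as did that of Ugt1a1 in 22 of 23; the setting in which Sult1b1 did not pass was TPM rescaling without wild type replicate 3 (log2 difference 0.53).

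Sult2a7, a hydroxysteroid sulfotransferase gene next to Sult2a8 on chromosome 7 (14465051 to 14494230, reverse strand, GRCm38), measured 0.397, 0.614 and 1.60 FPKM in wild type, 10.9, 15.8 and 10.7 FPKM in the knockout and 126, 5.36 and 14.1 FPKM with betaine. The wild type libraries held 8, 12 and 37 reads of it and the knockout libraries 189, 286 and 203, so the groups did not overlap. Sult2a7 rose by 3.32 ± 0.98 (limma adjusted p = 0.0418); the fit shares 1 spread per gene over all groups, and betaine replicate 1 had 126 FPKM. The call was lost in 6 of 9 fits with 1 library left out (without wild type replicate 1 or 2, any of the knockout replicates or betaine replicate 3; adjusted p up to 0.129), and without betaine replicate 1 the adjusted p was 0.00448. Limma voom on the recovered reads gave a log2 difference of 3.97 that did not pass (adjusted p = 0.152).

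The other sulfotransferases did not pass in this comparison. Sult5a1, whose substrates are little known, measured 0.905, 1.02 and 1.53 FPKM in wild type, 1.74, 2.58 and 1.95 FPKM in the knockout and 0.806, 1.75 and 1.49 FPKM with betaine; the knockout libraries were above the wild type ones, and the difference was 0.65 ± 0.24 (limma adjusted p = 0.0682), while without wild type replicate 3 Sult5a1 rose by 0.81 ± 0.25 (adjusted p = 0.0449). Sult2a8 differed by 0.58 ± 0.26 (limma adjusted p = 0.13), or by 0.21 ± 0.12 without wild type replicate 3, which had 99.1 FPKM beside 209 and 219 in the other wild type libraries. Sult1d1, which acts on catecholamines and phenols, measured 48.4, 38.6 and 134 FPKM in wild type, 84.5, 89.6 and 63.7 FPKM in the knockout and 86.1, 54.5 and 45.8 FPKM with betaine. Its difference was 0.31 ± 0.43 with wild type replicate 3 and 0.85 ± 0.27 without it (limma adjusted p = 0.0511). Sult1a1 had -0.13 ± 0.35 and 0.29 ± 0.24 in the same order, a change of sign. Sult1c2 lay between 0.708 and 2.31 FPKM over the 9 libraries. Sult2b1, Sult4a1 and Sult6b1, sulfotransferases of other tissues, stayed at or below 0.112 FPKM.

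**Figure D3:**
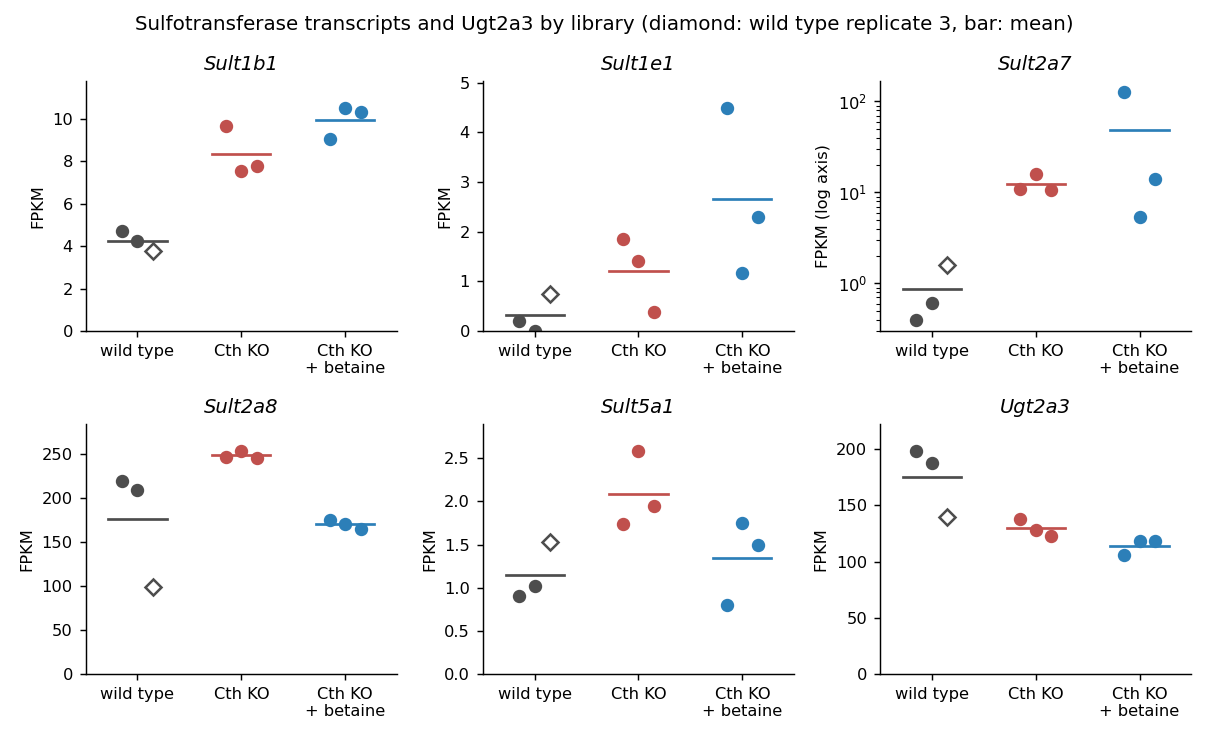
FPKM of Sult1b1, Sult1e1, Sult2a7, Sult2a8, Sult5a1 and Ugt2a3 in each of the 9 libraries, 1 panel per gene, with points for libraries and a bar for each group mean; the Sult2a7 axis is logarithmic and wild type replicate 3 is drawn as a diamond. All 6 Sult1b1 points of the Cth-deficient groups lie between 7.53 and 10.5 FPKM, above the wild type points at 3.78 to 4.70 FPKM.

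The comparison of betaine with plain water among Cth-deficient livers asks what betaine changes without Cth. With all 9 libraries limma called 0 of 26 members, beside 5 of 11852 genes, 0.0422% (0.0169% higher and 0.0253% lower). At an unadjusted p under 0.05 in limma there were 4 of the 26 members, Ugt1a1, Ugt1a6b, Ugt1a9 and Ugt3a1. Beside them were 2672 of the 11852 genes, a larger share than among the members. Limma voom on recovered reads also gave 0 calls among members and 4 at an unadjusted p under 0.05. Ugt1a1, Ugt1a6b, Ugt1a9 and Ugt3a1 are the 4 genes that fell in the knockout, a comparison that uses the same knockout libraries. Ugt1a1 differed by 0.69 ± 0.16 (SE) on the log2 scale (limma adjusted p = 0.0886), with a mean of 47.9 ± 2.96 FPKM (SD, n = 3) with betaine. Ugt1a9 differed by 1.72 ± 0.40 (limma adjusted p = 0.0903), Ugt1a6b by 0.60 ± 0.25 (adjusted p = 0.207) and Ugt3a1 by 0.40 ± 0.15 (adjusted p = 0.158). The betaine libraries lay wholly above the knockout libraries in Ugt1a1, Ugt1a5, Ugt1a9, Ugt2b35 and Ugt3a1 and wholly below them in Ugt2a3, Ugt2b36, Ugt2b5 and Sult2a8, that is in 9 of 26 members, beside 30.3% of all genes.

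Wild type replicate 3 enters this comparison through the spread that the groups share, the filter on low values and the adjustment over genes, and not through the group means. Without it limma called 3 of 23 members beside 2.31% of all genes, 2 higher (background 1.09%) and 1 lower (background 1.22%). Ugt1a1 rose by 0.69 ± 0.13 (limma adjusted p = 0.0458), Ugt1a5 rose by 0.94 ± 0.19 (adjusted p = 0.0494) and Sult2a8 fell by 0.54 ± 0.10 (adjusted p = 0.0458), from 245 to 253 to 165 to 175 FPKM. Ugt1a9 (1.72 ± 0.42, limma adjusted p = 0.0651) and Ugt2b35 (0.67 ± 0.17, adjusted p = 0.0671) did not pass. Ugt2b35 measured 90.2, 87.9 and 33.9 FPKM in wild type, 88.3, 69.1 and 88.4 FPKM in the knockout and 103, 156 and 136 FPKM with betaine. The scale of the libraries matters here: after rescaling to TPM the median of all genes moved to 0.33 in this comparison and to -0.36 in that of knockout with wild type, and 1754 genes were called here, 95.8% of them higher. The 4 genes Ugt1a1, Ugt1a5, Ugt1a6b and Ugt1a9 were higher with betaine than without in all 23 alternative settings. The same held for Sult1b1, Ugt2b34, Ugt2b35, Ugt2b37, Ugt3a1 and Ugt3a2, so it was not particular to Ugt1a genes. Ugt1a6a was lower with betaine in all 22 of its settings. These settings reuse mostly the same libraries.

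The betaine group against wild type compares treated Cth-deficient with untreated normal livers, and differs from the other comparisons in both genotype and betaine. Limma called 4 of 26 members, 15.4%, beside 11.7% of all genes, 3 higher (Sult1b1, Sult1e1 and Sult2a7; background 5.87%) and 1 lower (Ugt2a3; background 5.78%). The 2 groups did not overlap in 7 of 26 members, beside 32.2% of all genes. Sult1b1 rose by 1.14 ± 0.14 (limma adjusted p = 0.00391) and was called in all 9 fits with 1 library left out. Sult1e1, the estrogen sulfotransferase, measured 0.204, 0 and 0.757 FPKM in wild type, 1.85, 1.42 and 0.378 FPKM in the knockout and 4.49, 1.17 and 2.31 FPKM with betaine. The betaine libraries lay above the wild type libraries, at levels of 27 to 94 reads against 0 to 17, and Sult1e1 rose by 1.91 ± 0.51 (limma adjusted p = 0.0447), a call lost without wild type replicate 1 or 2, knockout replicate 1 or 2, or betaine replicate 1 or 3. Sult2a7 rose by 4.11 ± 0.98 (limma adjusted p = 0.0361), also kept in 3 of 9 such fits, and voom on recovered reads called neither Sult1e1 nor Sult2a7, with or without wild type replicate 3. Ugt2a3 fell by 0.60 ± 0.15 (limma adjusted p = 0.0375), or by 0.76 ± 0.12 (adjusted p = 0.00929) without wild type replicate 3, and only that 1 of the 9 fits with a library left out kept the call.

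No Ugt1a gene passed between the betaine group and wild type. Ugt1a1 differed by -0.03 ± 0.16 (limma adjusted p = 0.901), Ugt1a9 by 0.10 ± 0.40 (adjusted p = 0.894) and Ugt1a6b by -0.48 ± 0.25 (adjusted p = 0.232), intervals that leave room for differences of either sign. Ugt2b37 measured 4.83, 6.42 and 2.74 FPKM in wild type, 7.11, 8.33 and 6.06 FPKM in the knockout and 8.43, 7.58 and 10.2 FPKM with betaine, with all betaine libraries above all wild type libraries, and its difference of 0.89 ± 0.26 did not pass (limma adjusted p = 0.0523). Without wild type replicate 3 limma called the same 4 members, of 23 tested, beside 12% of all genes (5.58% higher and 6.4% lower).

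**Figure D4:**
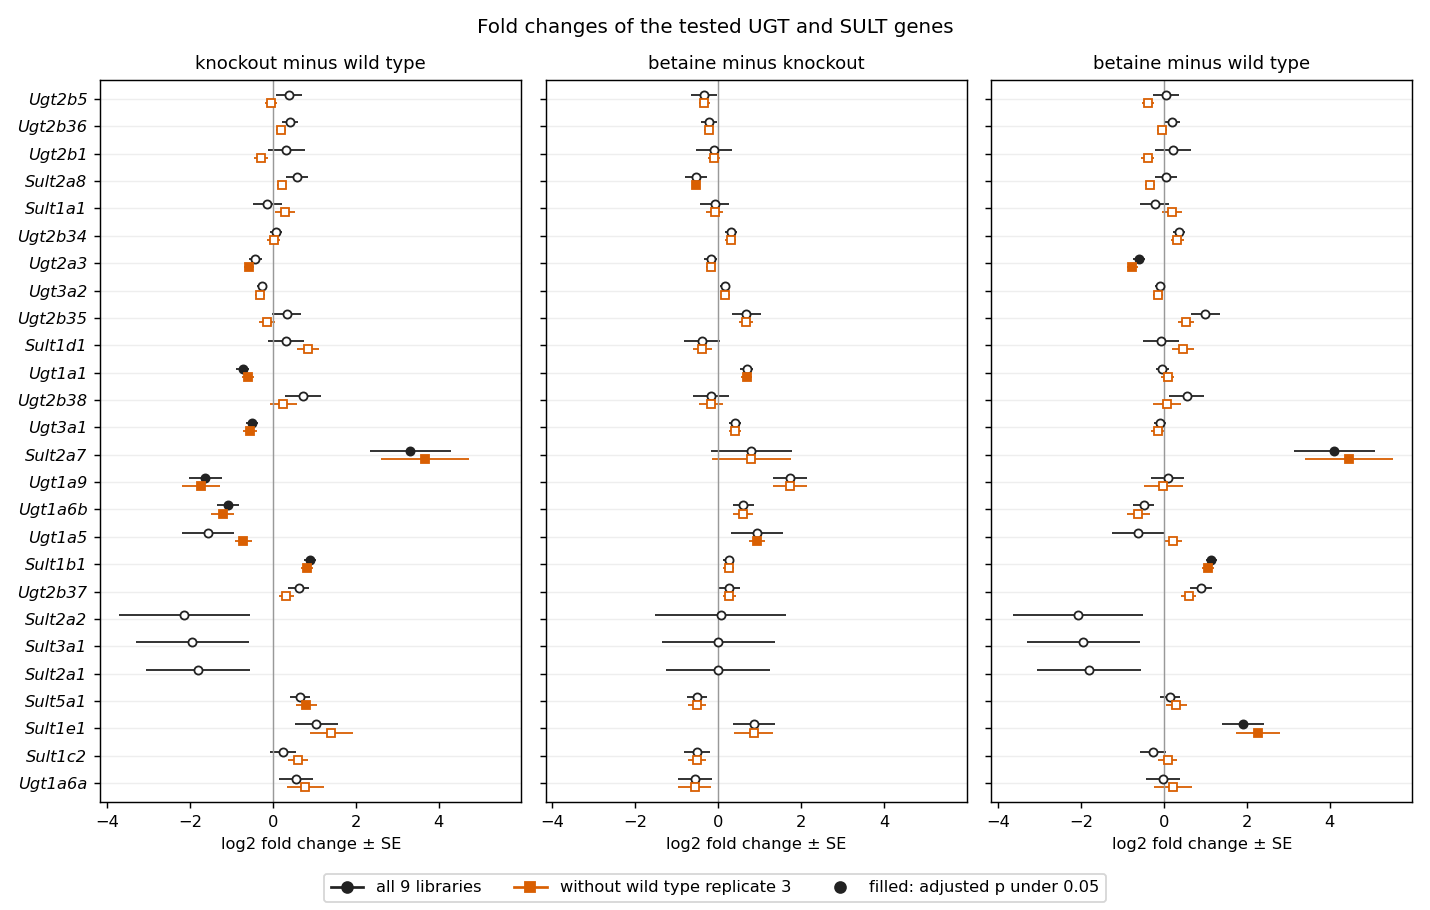
Difference in log2(FPKM + 0.5) of the tested members in the 3 comparisons, 1 panel each, with bars of 1 standard error; circles use all 9 libraries, orange squares leave out wild type replicate 3, and filled symbols have a limma adjusted p under 0.05. Sult2a7 has the largest called differences, 3.32 in the knockout and 4.11 with betaine, both against wild type.

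Promoters were compared among the members. Windows of 250 bases before and 50 after the start were matched by symbol in RefSeq (GRCm38.p6) for 29 of the 35 members, in 32 windows. The 250 bases before the starts of Ugt1a1, Ugt1a5 and Ugt1a9 are shown since these are the Ugt1a genes tested in which every knockout library lay below every library of both other groups. They lie at chr1:88211709-88211958, chr1:88165762-88166011 and chr1:88070529-88070778, forward strand. Capitals mark GTTAAT (a half-site of HNF1), AGGTCA (a half-site of nuclear receptors) and GCGTG (the core of the AHR site), each searched on both strands.
Ugt1a1: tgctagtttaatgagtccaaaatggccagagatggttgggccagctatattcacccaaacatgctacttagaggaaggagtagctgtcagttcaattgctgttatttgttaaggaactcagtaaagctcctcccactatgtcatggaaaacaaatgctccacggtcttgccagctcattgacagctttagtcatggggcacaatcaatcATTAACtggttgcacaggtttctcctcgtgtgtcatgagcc
Ugt1a5: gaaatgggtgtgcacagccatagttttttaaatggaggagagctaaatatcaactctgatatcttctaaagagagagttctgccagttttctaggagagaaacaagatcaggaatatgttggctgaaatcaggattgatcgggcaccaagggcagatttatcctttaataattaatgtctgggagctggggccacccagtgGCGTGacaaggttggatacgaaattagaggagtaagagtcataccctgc
Ugt1a9: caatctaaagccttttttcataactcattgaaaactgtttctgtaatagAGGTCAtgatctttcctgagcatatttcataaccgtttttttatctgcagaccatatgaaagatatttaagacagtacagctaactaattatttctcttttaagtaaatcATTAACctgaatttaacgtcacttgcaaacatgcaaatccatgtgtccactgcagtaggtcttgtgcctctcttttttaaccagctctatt
GTTAAT was in 34.4% of the member windows and in 7.1% of all 32851 promoter windows of this length, AGGTCA in 31.3% and 16.3%, and GCGTG in 15.6% and 32.4%. TGACNNNGC, the core of the NRF2 site, was in 0 of the 32 member windows and 12.4% of all windows, and TATAAA in 18.8% and 13.6%. The windows of gene families share descent, and a match describes letters only.

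Of the Ugt2b genes, which did not pass in these comparisons, 4 share sequence just before the start. The windows of Ugt2b1 and Ugt2b34 held no AGGTCA, and that of Ugt2b35 held it from base -215. Below are the 60 bases just before the start in Ugt2b5 (chr5:87140341-87140400), Ugt2b36 (chr5:87092556-87092615), Ugt2b37 (chr5:87254789-87254848) and Ugt2b38 (chr5:87424204-87424263), written on the reverse strand that they use, with AGGTCA in capitals.
Ugt2b5: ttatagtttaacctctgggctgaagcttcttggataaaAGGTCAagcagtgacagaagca
Ugt2b36: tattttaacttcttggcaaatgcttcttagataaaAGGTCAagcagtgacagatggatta
Ugt2b37: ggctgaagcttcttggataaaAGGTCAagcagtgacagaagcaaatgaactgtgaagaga
Ugt2b38: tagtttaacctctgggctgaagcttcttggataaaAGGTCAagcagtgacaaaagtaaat
The 22-base stretch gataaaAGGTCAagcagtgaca was picked as the longest one common to these 4 sequences, so all 4 hold it by that choice. It was in 4 of the 32851 promoter windows, those of these genes.

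The genes that supply both reactions were listed beside the transferases. As background for this and the following lists, limma called 25.6% of all genes for knockout minus wild type, 12.8% higher and 12.7% lower. The shares were 0.0422% for betaine minus knockout and 11.7% for betaine minus wild type. Without wild type replicate 3 they were 21.6%, 2.31% and 12% in the same order of comparisons. Among 8 genes of UDP-glucuronate supply and glucuronide removal, limma called 0 higher and 1 lower in the knockout, and the list's median was 0.22, or 0.02 without wild type replicate 3. Gusb, the lysosomal beta-glucuronidase that removes glucuronic acid, measured 6.48, 7.28 and 7.89 FPKM in wild type, 4.93, 3.98 and 4.12 FPKM in the knockout and 3.99, 6.04 and 6.04 FPKM with betaine and fell by 0.67 ± 0.17 (limma adjusted p = 0.0209). Ugdh, which makes UDP-glucuronate, differed by 0.11 ± 0.26 (adjusted p = 0.785). No gene of this list passed in the other 2 comparisons, where the medians were 0.17 for betaine minus knockout and 0.20 for betaine minus wild type, or 0.13 without wild type replicate 3.

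Of 15 symbols listed for PAPS supply, sulfate transport and sulfatases, 13 were found among the genes, and 10 were tested. Of these, 2 were lower (background 12.7%) and 0 higher (background 12.8%) in the knockout, with a median of -0.24. Arsb, a lysosomal sulfatase, measured 2.92, 2.94 and 2.80 FPKM in wild type, 1.36, 1.38 and 1.46 FPKM in the knockout and 2.25, 2.89 and 2.62 FPKM with betaine and fell by 0.84 ± 0.12 (limma adjusted p = 0.00567). Impad1, a phosphatase that clears the by-product of sulfation in the Golgi, fell by 0.92 ± 0.19 (limma adjusted p = 0.0111). In betaine against knockout none of the 10 passed with all libraries, with a median of 0.33; without wild type replicate 3, Slc26a1 rose by 0.79 ± 0.16 (limma adjusted p = 0.0494) and Arsb by 0.70 ± 0.13 (adjusted p = 0.0433). Slc26a1, the sulfate exchanger of the hepatocyte membrane, measured 40.1, 29.3 and 45.8 FPKM in wild type, 29.7, 24.0 and 29.8 FPKM in the knockout and 41.9, 49.5 and 53.8 FPKM with betaine. Papss2, which makes PAPS in liver, measured 23.5, 27.5 and 97.5 FPKM in wild type, 34.2, 34.6 and 32.1 FPKM in the knockout and 55.7, 52.0 and 43.3 FPKM with betaine. Wild type replicate 3 was highest and the betaine libraries were next. Betaine against wild type gave 0.33 ± 0.45 with that library (limma adjusted p = 0.66), and without it Papss2 rose by 0.96 ± 0.14 (adjusted p = 0.00673) and Arsa fell by 0.70 ± 0.19 (adjusted p = 0.0476).

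**Figure D5:**
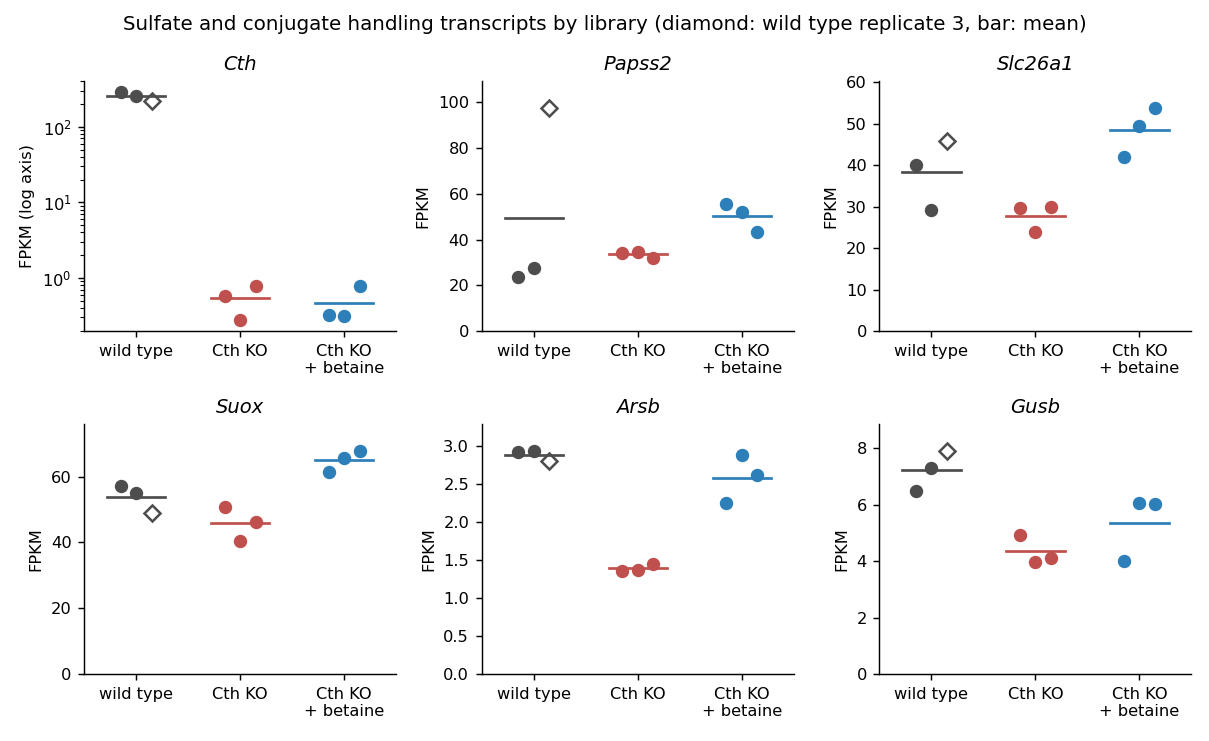
FPKM of Cth, Papss2, Slc26a1, Suox, Arsb and Gusb in each of the 9 libraries, 1 panel per gene, with points for libraries and a bar for each group mean; the Cth axis is logarithmic and wild type replicate 3 is drawn as a diamond. Arsb lies between 1.36 and 1.46 FPKM in the knockout and between 2.25 and 2.94 FPKM in the other libraries.

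On the way from cystathionine to sulfate, 4 of 10 genes were higher (background 12.8%) and 1 lower (background 12.7%) in the knockout. The latter was Cth with -7.95 ± 0.23 (limma adjusted p = 3.36e-07). Tst and Mpst, sulfurtransferases, rose by 0.75 ± 0.12 (limma adjusted p = 0.00633) and 0.85 ± 0.17 (adjusted p = 0.0104), and Ethe1, the persulfide dioxygenase, by 1.04 ± 0.27 (adjusted p = 0.0215). Got2, a mitochondrial aminotransferase, rose by 0.56 ± 0.16 (adjusted p = 0.0291), and its call was lost without wild type replicate 3 (adjusted p = 0.062). Suox, the oxidase that makes sulfate from sulfite, measured 57.0, 55.1 and 48.9 FPKM in wild type, 50.7, 40.6 and 46.1 FPKM in the knockout and 61.5, 65.5 and 67.7 FPKM with betaine; its difference with betaine against knockout, 0.50 ± 0.13, did not pass (limma adjusted p = 0.0961). Against wild type the betaine group had 3 genes higher (background 5.87%) and 2 lower (background 5.78%). The higher genes were Mpst (1.14 ± 0.17, limma adjusted p = 0.00767), Tst (0.63 ± 0.12, adjusted p = 0.0159) and Ethe1 (1.28 ± 0.27, adjusted p = 0.0194). The lower genes were Cth and Cbs (-0.64 ± 0.13, limma adjusted p = 0.0179 for Cbs).

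Of 13 nuclear receptors and factors known to act on transferase genes, 1 was higher (background 12.8%) and 4 were lower (background 12.7%) in the knockout. The list's median was -0.17, or -0.44 without wild type replicate 3. Ppara, the receptor of fatty acids, measured 28.4, 19.9 and 29.6 FPKM in wild type, 3.78, 5.22 and 6.07 FPKM in the knockout and 6.05, 14.0 and 8.45 FPKM with betaine. All knockout libraries were below all wild type libraries and overlapped with the betaine libraries, and Ppara fell by 2.26 ± 0.29 (limma adjusted p = 0.00546). Rxra, the partner of many nuclear receptors, fell by 0.69 ± 0.16 (adjusted p = 0.0159), Hnf4a by 0.66 ± 0.15 (adjusted p = 0.0161) and Arnt by 0.61 ± 0.16 (adjusted p = 0.0225), and Foxa2 rose by 1.19 ± 0.28 (adjusted p = 0.0173). Without wild type replicate 3 the call of Arnt was lost (adjusted p = 0.0523) and Nfe2l2, which encodes NRF2, fell by 0.68 ± 0.16 (limma adjusted p = 0.021). Nr1i2 and Nr1i3, the drug receptors PXR and CAR, differed by 0.17 ± 0.22 and -0.01 ± 0.17 and did not pass (limma adjusted p = 0.582 and 0.96). With betaine against knockout none of the 13 passed with all libraries; without wild type replicate 3, Ahr rose by 0.88 ± 0.18 (limma adjusted p = 0.0494). Against wild type Ppara (-1.46 ± 0.29, limma adjusted p = 0.0177), Rxra (-0.60 ± 0.16, adjusted p = 0.0438) and Hnf4a (-0.97 ± 0.15, adjusted p = 0.00861) were lower with betaine (background 5.78%).

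Of 10 tested transporters that carry the conjugates, 3 were lower (background 12.7%) and 1 was higher (background 12.8%) in the knockout. The list's median was -0.03, or -0.16 without wild type replicate 3. Slco1b2, an uptake carrier of bile acids and bilirubin, fell by 0.92 ± 0.19 (limma adjusted p = 0.0103), Abcc3, an exporter to blood, by 0.84 ± 0.17 (adjusted p = 0.0103) and Abcc2, the exporter of bilirubin glucuronides to bile, by 0.87 ± 0.22 (adjusted p = 0.0214). Slc22a7, an organic anion carrier, rose by 1.37 ± 0.27 (adjusted p = 0.01) and by 1.28 ± 0.27 with betaine against wild type (limma adjusted p = 0.0215). No transporter passed for betaine against knockout.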

How the data were processed

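Poly-A liver RNA was sequenced in 9 libraries, 3 a group. The authors deposited FPKM, 1 value per gene and library, and no counts were used as deposited; per the submitters' processing notes HISAT2 2.0.5, featureCounts 1.5.0-p3, DESeq2 1.16.1 and genome mm10 were used, with no role stated, and the annotation and strand setting are not given in the sources used here. Symbols matched 54409 of 54532 genes. With exon lengths from GENCODE M21 (GRCm38), found for 54495 genes, 98.3% to 98.6% of low values (up to 20 reads) were within 0.05 of a whole number of reads per library. The library denominators this implies tracked median-of-ratios factors to within 0.0003 on the log2 scale.

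Limma 3.58.1 (R 4.3.3; trend and robust) was fitted to log2(FPKM + 0.5) over all 9 libraries and 3 groups for genes averaging 0.5 FPKM or more, with Benjamini-Hochberg adjustment over all genes of a comparison and a threshold of 0.05, two-sided. A difference on this scale understates the change of low genes. The fit was checked on simulated data. Alternatives were other pseudocounts, filters, scalings, a replicate block, single libraries left out and limma voom on recovered reads. All members are named; values in every library are given for members called in a comparison, for the 6 with the highest mean, and, chosen after their values were seen, for Ugt1a5, Ugt1a6a, Ugt2b35, Ugt2b37, Sult1d1, Sult5a1 and some genes of other lists. From each other list up to 4 called genes with the smallest p are named; Got2, Arnt, Nfe2l2, Nr1i2 and Nr1i3 were added after their values were seen. Members and lists were chosen with earlier results of these data known. Promoters are RefSeq GRCm38.p6. Without a protein table, no protein sequence is shown. Gene pairs that overlap on opposite strands cannot be told apart where counting ignored strand.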

Additional observations from a re-analysis of the deposited data

How the results depend on the processing

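All genes called for knockout minus wild type (3029) became 1865 with no filter and 1905 with the exon length trend and wild type replicate 3 removed, and 6 members became 10 after TPM rescaling without that library. For betaine minus knockout, 5 genes became 8 with a pseudocount of 0.1, 10 with 1, 1 with no filter, 1754 after TPM rescaling, 0 without trend and robust settings, 0 with voom and 35 with only the 2 groups fitted. Without wild type replicate 3 they became 674 with voom, 242 with the length trend removed and 2680 after TPM rescaling. The 0 members called there became 6 after TPM rescaling and, without wild type replicate 3, 5 with voom, 3 with the length trend removed and 9 after TPM rescaling. For betaine minus wild type, 1381 genes became 531 with no filter and 353 with only the 2 groups fitted; 4 members became 1 with no filter, 1 with only the 2 groups and 2 with voom without wild type replicate 3. Leaving out 1 library gave 897 to 3243 genes and 1 to 9 members for knockout minus wild type, 0 to 882 genes and 0 to 3 members for betaine minus knockout, and 347 to 1439 genes and 1 to 4 members for betaine minus wild type. TPM rescaling took the share of higher calls from 50.1% to 13.8% for knockout minus wild type and from 40% to 95.8% for betaine minus knockout; among members the knockout calls went from 2 higher and 4 lower to 2 and 6. The causes of these changes were not tested. The replicate numbers are shared by the groups. Deviations of same-numbered libraries from their group means correlated at -0.23 to 0.10, beside -0.14 to 0.26 for libraries of unlike number. With 3 libraries a group this cannot settle whether the numbers pair the libraries. With the replicate number as a block, members called were 4, 0 and 1 in the 3 comparisons. Genes called were then 0 for betaine minus knockout and 671 for betaine minus wild type. No called member changed direction in any alternative. Sult1e1 and the wild type level of Sult2a7 rest on few reads, and the added alternatives, voom and those that combine 2 changes, were chosen after seeing the data.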

Other observations

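Betaine replicate 1 differed from the other betaine libraries in several of these genes, which were singled out after their values were seen. It had 126 FPKM of Sult2a7 against 5.36 and 14.1 in betaine replicates 2 and 3, 4.49 FPKM of Sult1e1 against 1.17 and 2.31, 216 FPKM of Sult1a1 against 114 and 149, and 86.1 FPKM of Sult1d1 against 54.5 and 45.8. It had the least Ugt1a9 of its group, 13.5 FPKM against 33.0 and 26.8. Among sex-biased genes of liver it had 37.3 FPKM of Cyp2b9 against 7.97 and 1.46, and 53.2 FPKM of Cyp7b1 against 157 and 262. It was the lowest betaine library in every listed male-biased gene but Cyp2d9, which had 699 FPKM against 705 and 647. Selenbp2 had 130 FPKM against 287 and 494, and Mup20, which differed less, 2014 against 2047 and 2285. Its 4 Y-linked transcripts were expressed, at lower levels than in the other betaine libraries, with Ddx3y at 8.39 FPKM against 10.9 and 9.19. No difference within the group was tested.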
